A study of Mus musculus with 6 samples.

Results

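The 9 genes described here mark the first steps of lymphoid commitment: Il7r, Dntt, Rag1, Rag2, Ccr9, Ebf1, Notch1, Satb1 and Tcf3. They were chosen by name, and all 9 were found among the 34745 genes of the count and FPKM tables. Of these, 5 had at least 1 read in a library and 3 (Tcf3, Notch1 and Satb1) passed the filter on low counts and were tested. HSCs (hematopoietic stem cells) were sorted as LSK CD150+CD34-CD48- cells from the bone marrow of adult C57BL/6 mice, LSK being lineage-negative, Sca1-positive and cKit-positive cells. Bulk RNA-seq compared 3 WT samples of genotype Med23floxp/flowp with 3 KO samples of genotype Mx1-cre;Med23floxp/flowp. Both groups thus carried the floxed allele, and only KO mice carried Cre, driven by the interferon-inducible Mx1 promoter, which is active in many cell types besides HSCs. In the study deletion was induced with poly(I:C), and WT mice were Cre-negative littermates. Whether the WT mice of these libraries were injected, and whether a sample was 1 mouse or a pool, are not given in the sources used here, so p-values measure only the spread between samples. The comparison asks whether HSCs without Med23, a subunit of the mediator complex that links transcription factors to RNA polymerase II, differ in these lymphoid genes.

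Lymphoid differentiation starts in multipotent progenitors, where low levels of lymphoid transcripts appear before any cell is committed, a state called lymphoid priming. The E protein Tcf3 (E2A) and the chromatin organizer Satb1 act early. Ebf1 then directs the B lineage and Notch1 signalling the T lineage, the interleukin-7 receptor chain Il7r carries growth signals, Ccr9 guides progenitors to the thymus, and Rag1, Rag2 and Dntt (terminal deoxynucleotidyl transferase) assemble and diversify antigen receptor genes. HSCs stand upstream of these steps.

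In these HSC libraries the regulators Tcf3 and Notch1 were well detected in both genotypes, while the lineage-restricted genes had few or no reads apart from Dntt in 1 WT library. Satb1 was low in every library, and Dntt and Ebf1 were counted in 2 libraries each. Il7r, Rag1, Rag2 and Ccr9 had 0 counts in all 6 libraries. None of the 3 tested genes differed between KO and WT in edgeR's quasi-likelihood test at an adjusted p of 0.05.

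The promoters of Tcf3 and Notch1, the best expressed genes, of Rag1, which had no count, and of Dntt, counted in 2 libraries, are printed to show how much they differ in CG dinucleotides, the target of DNA methylation. Each stretch is the 250 bases before the most upstream RefSeq start site of the gene in GRCm38.p6 (mm10), read 5′ to 3′ on the gene's strand, with every CG in capitals.
Tcf3, chr10:80433636-80433885, minus strand: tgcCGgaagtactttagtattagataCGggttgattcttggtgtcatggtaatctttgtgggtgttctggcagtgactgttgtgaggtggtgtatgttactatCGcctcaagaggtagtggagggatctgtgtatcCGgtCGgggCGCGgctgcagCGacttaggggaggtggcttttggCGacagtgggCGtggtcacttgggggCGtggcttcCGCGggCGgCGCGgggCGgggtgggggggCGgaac
Notch1, chr2:26503823-26504072, minus strand: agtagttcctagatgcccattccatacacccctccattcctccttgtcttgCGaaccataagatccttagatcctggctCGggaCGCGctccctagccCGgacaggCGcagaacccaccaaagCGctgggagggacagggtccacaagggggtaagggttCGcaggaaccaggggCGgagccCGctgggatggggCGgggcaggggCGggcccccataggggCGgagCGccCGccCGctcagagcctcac
Rag1, chr2:101649533-101649782, minus strand: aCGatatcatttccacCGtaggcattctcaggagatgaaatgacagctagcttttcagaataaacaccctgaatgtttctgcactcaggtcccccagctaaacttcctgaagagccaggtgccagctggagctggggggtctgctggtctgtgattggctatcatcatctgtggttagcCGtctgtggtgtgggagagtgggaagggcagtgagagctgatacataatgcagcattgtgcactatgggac
Dntt, chr19:41029025-41029274, plus strand: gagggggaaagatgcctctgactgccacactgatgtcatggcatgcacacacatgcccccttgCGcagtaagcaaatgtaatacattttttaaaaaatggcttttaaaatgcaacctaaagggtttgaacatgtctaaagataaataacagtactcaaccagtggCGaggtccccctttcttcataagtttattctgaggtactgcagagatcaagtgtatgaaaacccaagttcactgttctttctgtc
The Tcf3 stretch held 18 CG dinucleotides and the Notch1 stretch 16, against 3 for Rag1 and 2 for Dntt.

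All 9 genes had a RefSeq promoter, as did 18594 genes of the table. The median promoter held 9 CG dinucleotides. The counts were 1 for Il7r, 3 each for Rag2 and Ccr9, 5 for Satb1 and 9 for Ebf1. Satb1 had 5 RefSeq promoter entries and Ebf1 had 2, of which only the most upstream was read. Which start these HSCs use was not tested. The 4 genes without a count therefore held between 1 and 3, and the 2 best expressed genes held the most. Over all promoters, the share of genes with at least 1 count was 18.8% where the promoter held 0 or 1 CG, 41.9% at 2 to 4, 66.9% at 5 to 9, 89.6% at 10 to 19 and 92.5% at 20 or more. The 9 genes are set against this order as a description only. RefSeq and GENCODE M21 place several of the starts differently. The Ebf1 stretch lies wholly, and those of Il7r and Ccr9 lie in part, in exons of GENCODE M21, the Notch1 and Ccr9 stretches lie far inside the annotated genes, and the Satb1 stretch lies in an exon of Gm6934.

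**Figure D1:**
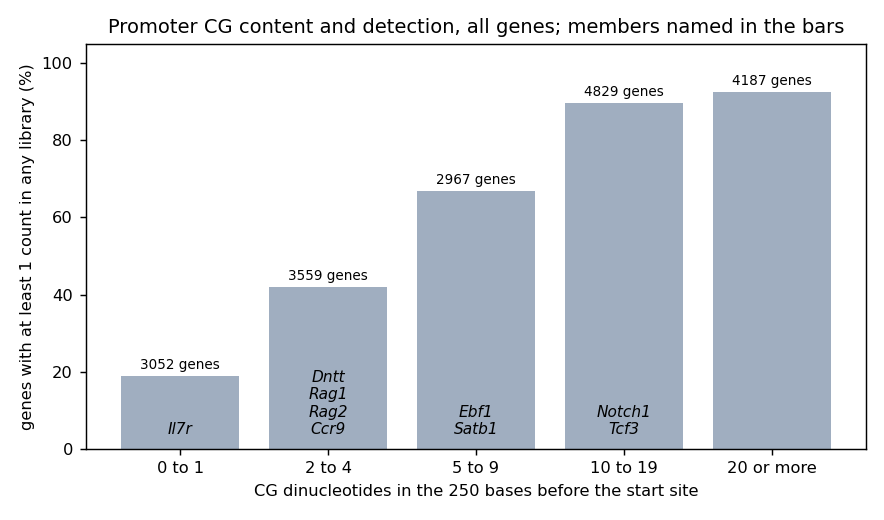
Bars give the percentage of genes with at least 1 count in any of the 6 libraries (y axis) for promoters grouped by the number of CG dinucleotides in the 250 bases before the start site (x axis), with the number of genes above each bar and the lymphoid priming genes named inside. Detection rises from 18.8% to 92.5%, with Il7r, Dntt, Rag1, Rag2 and Ccr9 in the 2 lowest classes and Notch1 and Tcf3 at 10 to 19.

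E proteins bind E-boxes, so the same stretches were searched on both strands for the E-box core CAGCTG, for the related core CACCTG and for the looser form CANNTG, which includes both. At least 1 of the 2 cores was in the stretches of Rag1 and Ccr9 (2 of 9), against 26.7% of all promoters. Rag1 held 1 of each and Ccr9 held 1 of CACCTG. The looser form was in 6 of 9, against 63.3% of all promoters. A match describes the letters and is not a binding site.

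Library totals were 4750410, 8131344 and 3537269 reads in WT replicates 1 to 3 and between 4760545 and 5281232 in the KO libraries. A level of 3 counts, taken as the smallest detectable signal, equals 0.369 to 0.927 CPM (counts scaled to library size, here with TMM factors) in 1 library. Levels and limits pooled over a group or over all libraries are instead scaled to the summed read totals, without TMM factors. Med23 itself was at 47.6, 70.8 and 24.1 CPM in WT and 31.6, 29.8 and 36.8 CPM in KO (log2 fold change -0.54, edgeR adjusted p = 0.989), so the library labelled WT replicate 3 lay below every KO library and the gene does not separate the labels. The study reports efficient loss of Med23 after poly(I:C). Counts over the whole gene do not show which exons were deleted, and why Med23 did not separate the labels was not tested. Directions of Tcf3, Notch1 and Satb1 are therefore given with and without the library labelled WT replicate 3. For other genes and for the lists they are given with that library only. All 14 HSC markers were detected in every library, with summed levels of 411 to 430 FPKM in WT and 366 to 422 FPKM in KO. FPKM are counts scaled to gene length and to library total. Skeletal muscle markers, a tissue outside the sort, summed to 58.7 to 133 FPKM in WT and 3.40 to 5.52 FPKM in KO. Whether that difference touches any value of the lymphoid genes was not tested.

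Tcf3 (ENSMUSG00000020167, chromosome 10 from 80409514 to 80433647) encodes the E proteins E12 and E47, which open the lymphoid program and pair with class II partners. Its level was 116, 151 and 230 CPM in WT replicates 1 to 3 and 159, 199 and 239 CPM in KO replicates 1 to 3. The highest KO library and the highest WT library were close, the lowest was WT replicate 1, and the groups overlapped. The mean was 166 ± 58.3 CPM in WT and 199 ± 40.1 CPM in KO (SD, n = 3 each, edgeR log2 fold change 0.26, SE 0.28, 95% confidence interval from -0.36 to 0.89, adjusted p = 0.997). Without WT replicate 1, the lowest library, the log2 fold change was 0.07, and leaving out the library labelled WT replicate 3 gave 0.57 (edgeR adjusted p = 0.726).

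Notch1 (ENSMUSG00000026923, chromosome 2 from 26457903 to 26516663) encodes the receptor whose activation in the thymus sets the T lineage. It was at 86.7, 76.4 and 106 CPM in WT and at 109, 86.6 and 127 CPM in KO. KO replicates 1 and 3 were above every WT library, while KO replicate 2 lay level with WT replicate 1. The means were 89.7 ± 15.0 CPM in WT and 108 ± 20.4 CPM in KO (SD, n = 3 each), with an edgeR log2 fold change of 0.26 (SE 0.26, 95% confidence interval from -0.31 to 0.84, adjusted p = 0.992). Leaving out the library labelled WT replicate 3 gave a log2 fold change of 0.40 (edgeR adjusted p = 0.853). In GENCODE M21 its exons overlap those of the opposite-strand transcripts 0610009E02Rik (14 counts in all) and Gm13568 (1 count), and the strand setting of the counting is not given in the sources used here.

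Satb1 (ENSMUSG00000023927, chromosome 17 from 51736187 to 51833290) encodes a chromatin organizer active in lymphoid progenitors and thymocytes. It had 75, 98 and 28 counts in WT and 72, 13 and 26 in KO, or 15.4, 12.0 and 8.65 CPM and 14.6, 2.37 and 5.26 CPM. KO replicate 1 was as high as WT, and KO replicates 2 and 3 were below every WT library. The mean was 12.0 ± 3.36 CPM in WT and 7.40 ± 6.39 CPM in KO (SD, n = 3 each). The edgeR log2 fold change was -0.70 (SE 0.76, 95% confidence interval from -2.40 to 0.99, adjusted p = 0.997). It rested on single libraries: the value was -1.65 without KO replicate 1 and -0.28 without KO replicate 2, with edgeR adjusted p of 0.979 and 1. Leaving out the library labelled WT replicate 3 gave -0.89 (edgeR adjusted p = 0.927). The interval spans changes in either direction, so a difference of this size was not detectable here.

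Dntt (ENSMUSG00000025014, chromosome 19 from 41029275 to 41059525), which adds untemplated nucleotides at antigen receptor joints, was counted at 2, 52 and 0 reads in WT replicates 1 to 3 and at 0 in each KO library. WT replicate 2 thus held 96.3% of its reads. Over all WT reads, pooled without TMM factors, the level was 3.29 CPM, 16.6-fold the 0.198 CPM that 3 counts over the KO group equal. This ratio leaves out counting error in WT and the spread between samples. It rests on WT replicate 2, without which the WT group had 2 counts, below the smallest detectable signal, and no fold can be given. WT replicate 2 was the deepest library and also had the most reads of Cd48, which the sort selects against (10, 28 and 0 counts in WT, 0 in each KO library; Cd48 was chosen after its values were seen). Their part in the Dntt value was not tested.

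Other genes were also counted mainly in 1 library. Of 2070 genes with 30 to 100 counts in all, 101 (4.88%) had at least 90% of them in 1 library, and for 57 of the 101 that library was WT replicate 2. Among the 2070 genes, 128 had 0 counts in all KO libraries and 74 had 0 in all WT libraries. Dntt is 1 of the 128.

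Ebf1 (ENSMUSG00000057098, chromosome 11 from 44617317 to 45008091), the B lineage specification factor, had 0 counts in each WT library and 3, 1 and 0 in KO replicates 1 to 3. The 4 KO reads have an exact 95% Poisson interval of 1.09 to 10.2 reads, which covers counting error only. No KO library exceeded 3 counts, and a difference was not detectable at this depth.

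Il7r (ENSMUSG00000003882, chromosome 15 from 9505788 to 9530176), Rag1 (ENSMUSG00000061311, chromosome 2 from 101638282 to 101649501), Rag2 (ENSMUSG00000032864, chromosome 2 from 101624718 to 101632529) and Ccr9 (ENSMUSG00000029530, chromosome 9 from 123678439 to 123784330) had no read in either group. Over the whole series, 15677 of 34745 genes (45.1%) had none. A count of 0 in all 31593401 reads allows a level of up to 0.095 CPM, or 0.183 CPM in WT and 0.198 CPM in KO. These limits cover counting error only, since the cDNA was amplified and no molecular identifiers are described. Rag1 and Rag2 lie 5.75 kb apart in convergent order, and B230118H07Rik, which shares 80 exonic bases with Rag1 and 208 with Rag2 in GENCODE M21, had 978 counts. Of the exonic bases of Rag1 and Rag2, 6608 and 3424 in all, most are free of this overlap. Of the 10260 exonic bases of Ccr9, 1932 are shared with the opposite-strand AC165425.1 (0 counts) and 269 with Gm17200 (36 counts), and reads in such shared bases may not have been assigned to either gene.

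**Figure D2:**
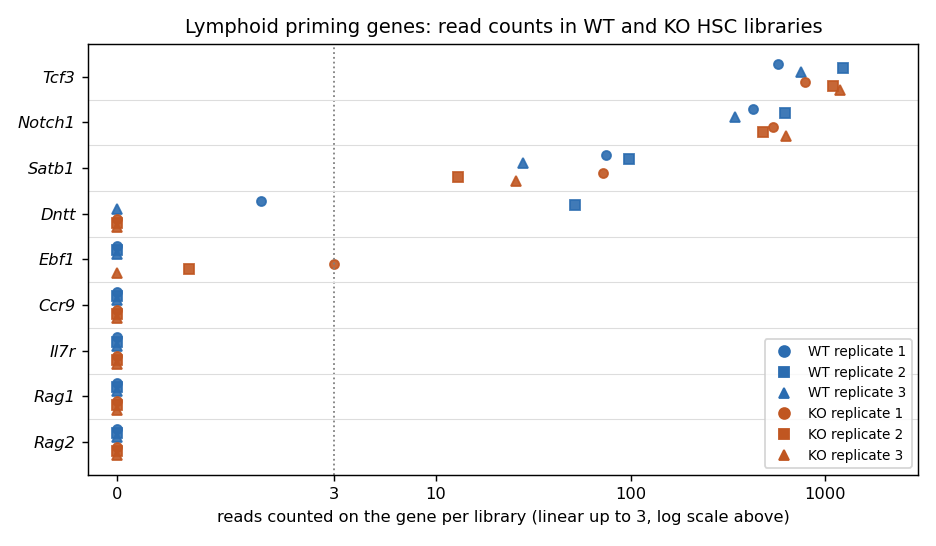
Reads counted on each of the 9 lymphoid priming genes (rows) in each library, with WT in blue, KO in orange and the replicate given by the symbol; the x axis is linear up to 3 reads, marked by the dotted line, and logarithmic above. Tcf3 and Notch1 lie above 300 reads in every library with overlapping groups, Satb1 runs from 13 to 98, Dntt is carried by WT replicate 2, and Il7r, Rag1, Rag2 and Ccr9 are at 0 throughout.

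As an exact two-sided permutation test of log2(CPM + 0.5), the 5 genes with any count gave p of 0.4 for Tcf3, 0.3 for Notch1, 0.3 for Satb1, 0.4 for Dntt and 0.4 for Ebf1. Adjusted over the 5 comparisons by the Benjamini-Hochberg method, all exact p were 0.4, and with 3 samples against 3 the smallest possible p is 0.1. Across all genes tested with edgeR, 0.0719% passed the adjusted threshold (9 of 12513), against 0 of the 3 tested lymphoid priming genes. At an unadjusted p under 0.05 it was 5.71% of all genes and again 0 of 3. DESeq2, which passed 120 of the 12513 genes, also passed 0 of 3. The WT and KO groups did not overlap for 12.4% of all genes and for 0 of the 3. With 3 genes, shares of this size give less than 1 gene, so the counts of 0 say little.

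On the deposited FPKM scale, which allows genes to be compared per length, the order of mean levels over the 6 libraries was Tcf3 (19.1 FPKM), Notch1 (6.19), Dntt (0.534), Satb1 (0.294) and Ebf1 (0.0116). Tcf3, at 12.7 to 24.4 FPKM, lay above Notch1, at 4.83 to 7.74 FPKM, in every library. Notch1 in turn lay above Satb1, at 0.0743 to 0.477 FPKM. Dntt, from 0 to 3.01 FPKM, overlapped Satb1, and Ebf1, from 0 to 0.0537 FPKM, lay below the lowest Satb1 value. Among genes with any count, Tcf3 stood at percentile 85.3, Notch1 at 65.5 and Satb1 at 23.6. The place of Dntt rests on WT replicate 2: it was below Satb1 in 5 of 6 libraries, and without WT replicate 2 the means were 0.0396 FPKM for Dntt and 0.28 FPKM for Satb1, which turns their order. The lengths behind the FPKM values differed from the merged exons of GENCODE M21, with a ratio of 2.34 for Tcf3, 1.74 for Satb1, 1.2 for Ebf1, 1.11 for Notch1 and 0.929 for Dntt. With GENCODE lengths the pooled levels were 43.9 CPM per kb for Tcf3, 6.74 for Notch1, 0.746 for Dntt, 0.519 for Satb1 and 0.013 for Ebf1, where the place of Dntt again rests on WT replicate 2.

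Several partners and paralogs were at higher levels than the lymphoid priming genes themselves. The common receptor chain Il2rg, which pairs with Il7r, was at 111 ± 15.1 FPKM in WT and 160 ± 28.5 FPKM in KO (SD, n = 3 each), while Il7r had no read. Flt3, the receptor of lymphoid-primed progenitors, was at 9.02 ± 2.47 FPKM in WT and 10.6 ± 5.25 FPKM in KO. Transcripts of the ligand Il7 were counted at 106, 10 and 25 reads in WT and 30, 81 and 13 in KO, which overlap.

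Among E proteins, Tcf3 exceeded both relatives in FPKM. Tcf4 was at 2.48 ± 0.593 FPKM in WT and 3.11 ± 0.398 FPKM in KO, and Tcf12 at 1.86 ± 0.149 and 1.72 ± 0.345 FPKM (SD, n = 3 each). The Id proteins, which bind E proteins and keep them from DNA, varied more. Id2 had 47, 79 and 23 counts in WT and 98, 80 and 148 in KO. Id3 had 15, 9 and 11 counts in WT and 0 in each KO library. Its pooled WT level was 10.8-fold that of 3 counts over the KO group, a ratio that leaves out counting error in WT. Skeletal muscle markers were also higher in WT, with sums of 58.7 to 133 FPKM against 3.40 to 5.52 FPKM in KO. Whether that difference touches the Id3 value was not tested. Id3 did not pass the filter on low counts and was not in the main test, and with no filter its edgeR adjusted p was 0.673. Of the 2070 genes with 30 to 100 counts, 56 were likewise at 0 in all KO libraries with counts in all WT libraries, and 31 showed the opposite.

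Notch2, the paralog of Notch1, was the more abundant receptor at 42.5 ± 2.94 FPKM in WT and 50.5 ± 0.444 FPKM in KO (SD, n = 3 each, edgeR log2 fold change 0.20, adjusted p = 0.989). Rbpj, the DNA-binding partner of the cleaved receptor, was at 3.81 ± 0.334 and 3.86 ± 0.254 FPKM. The Notch target Hes1 had 19, 1 and 1 counts in WT and 5, 16 and 4 in KO. Most Hes1 reads of each group came from 1 library, and the groups overlapped.

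Ebf2 had 0 counts in all libraries and Ebf3 had 1 in each of WT replicates 2 and 3. Ebf4 had 0, 1 and 21 counts in WT and 0, 0 and 4 in KO. Ikzf1, the early lymphoid zinc finger factor Ikaros, was in contrast at 13.1 ± 2.57 FPKM in WT and 18.6 ± 3.04 FPKM in KO (SD, n = 3 each, edgeR log2 fold change 0.46, adjusted p = 0.928). Xrcc5 and Xrcc6, which form the Ku complex that joins DNA ends in any cell, were transcribed while Rag1 and Rag2 were at 0. Xrcc5 was at 27.1 ± 17.3 FPKM in WT and 22.9 ± 3.94 FPKM in KO. Ccl25, the ligand of Ccr9, had 8, 54 and 18 counts in WT and 12, 19 and 5 in KO.

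**Figure D3:**
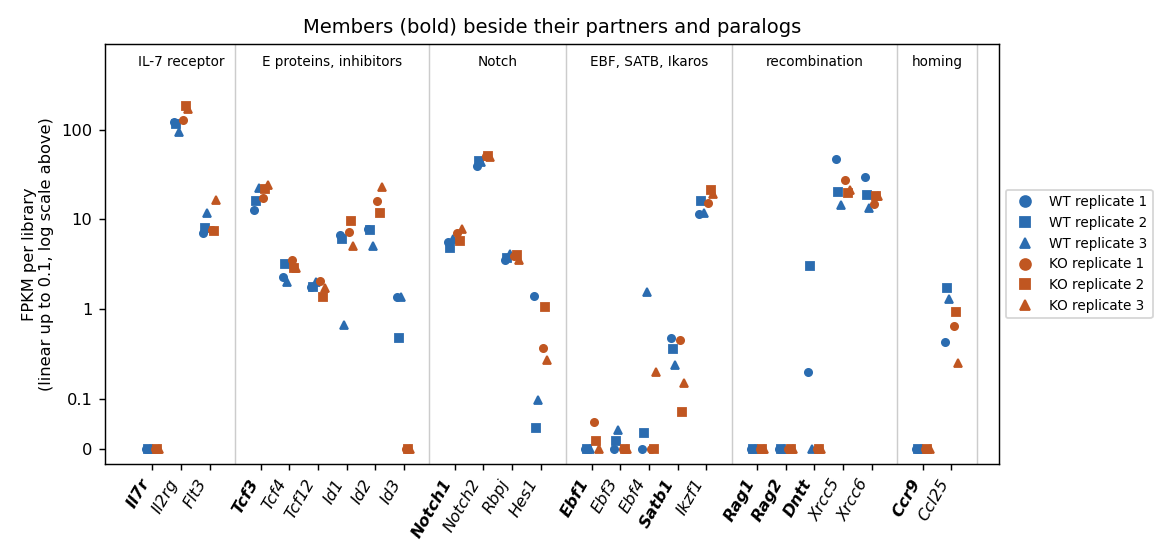
FPKM in each library (y axis, linear up to 0.1 and logarithmic above) of the lymphoid priming genes (bold) beside partners and paralogs, with WT in blue, KO in orange and the replicate given by the symbol. Il2rg, Notch2, Ikzf1, Xrcc5 and Xrcc6 are above 10 FPKM in every library, while Il7r, Rag1, Rag2 and Ccr9 are at 0.

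Other genes of these pathways were taken as 7 lists with 143 genes, of which 142 were in the table, 16 had 0 counts in all libraries and 104 were tested. None of the 104 passed edgeR's adjusted threshold, which 0.0719% of all genes passed. DESeq2, which passed 120 of the 12513 genes tested, also passed 0 of the 104. At shares this low the counts of 0 say little. At an unadjusted p under 0.05, 6 were higher and 2 lower in KO, or 7.69% against 5.71% of all genes. The groups did not overlap for 17 of the 104 (16.3% against 12.4% of all genes). The median log2 fold change of the 104 was 0.10, beside -0.005 over all genes tested.

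By role, IL-7 and cytokine receptor signalling had 18 tested genes whose median log2 fold change was 0.11, the E proteins and their inhibitors 8 with 0.19, and the Notch pathway 31 with -0.04. V(D)J recombination and end joining had 13 with -0.23, of which 0 were past an unadjusted p of 0.05. Early lymphoid transcription factors and their chromatin partners had 19 with 0.32. In that list 7 of 32 genes had no count: Ikzf3, Pax5, Bcl11b, Ebf2, Pou2af1, Eomes and Tbx21, most of them factors of committed lymphocytes. Homing molecules had 9 with 0.16, and pre-B and pre-T cell receptor genes had 6 with 0.25. Of the receptor genes, Igll1, Vpreb3, Cd3d, Cd3e, Cd3g and Zap70 had no count.

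The 8 genes under an unadjusted p of 0.05 all failed the adjustment in the edgeR test, and 7 of them are given here. Itgb7, an integrin chain of lymphocyte homing, had the smallest p among those higher in KO, at 14.8 ± 6.12 FPKM in WT and 38.6 ± 13.1 FPKM in KO (SD, n = 3 each, edgeR log2 fold change 1.36, adjusted p = 0.431). The others with higher estimates were Id2 (log2 fold change 1.27), the cytokine Flt3l (1.17), the adhesion receptor Cd44 (0.85), the transcription factor Mef2c (0.59) and Il2rg (0.49), with edgeR adjusted p between 0.698 and 0.799. Lat, an adaptor of T cell receptor signalling, was at 8.49 ± 1.75 FPKM in WT and 3.36 ± 0.683 FPKM in KO (SD, n = 3 each, edgeR log2 fold change -1.40, adjusted p = 0.431). In DESeq2 the adjusted p came close to the threshold for Itgb7 (0.0505) and Lat (0.0738). For the other genes named here the DESeq2 adjusted p lay between 0.361 and 0.571.

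**Figure D4:**
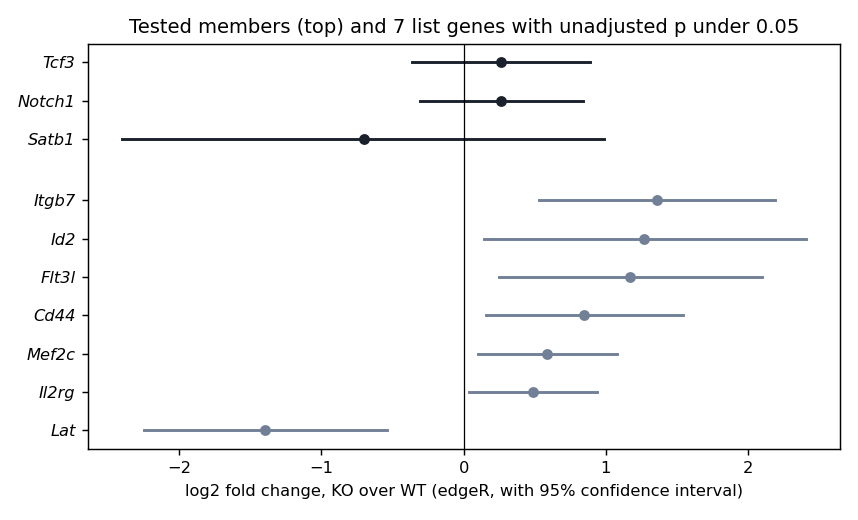
Log2 fold change of KO over WT (x axis) from edgeR with its 95% confidence interval for the 3 tested lymphoid priming genes (black) and 7 of the 8 list genes with an unadjusted p under 0.05 (grey). The intervals of Tcf3, Notch1 and Satb1 cross 0, that of Satb1 from -2.40 to 0.99, and none of the 10 genes passed the adjusted threshold.

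Some markers of lymphoid cells had no count in any library, as did 45.1% of all genes, and the others were counted. The list of multipotent and lymphoid-primed progenitors summed to 93.0 to 120 FPKM in WT and 113 to 149 FPKM in KO, with Ly6d and Il7r at 0. Of 10 B cell markers, Ms4a1, Ighd, Pax5 and Vpreb3 were at 0, and the sum, 22.8 to 31.3 FPKM in WT and 29.6 to 43.4 FPKM in KO, was mostly Cd79b. Of 11 T cell markers, 6 were at 0, among them Cd3d, Cd3e and Cd3g, and the sums were 1.47 to 2.89 FPKM in WT and 1.17 to 2.31 FPKM in KO. NK cell markers summed to 12.4 to 23.3 FPKM in WT and 9.19 to 14.4 FPKM in KO, with 5 of 8 at 0. This sum was mostly Nkg7 in every library. Klrb1c had 0, 1 and 6 counts in WT and 27, 8 and 10 in KO, and Klrk1 had 0, 9 and 0 in WT and 0 in KO. In bulk samples fewer cells with a transcript and less transcript per cell cannot be told apart.

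**Figure D5:**
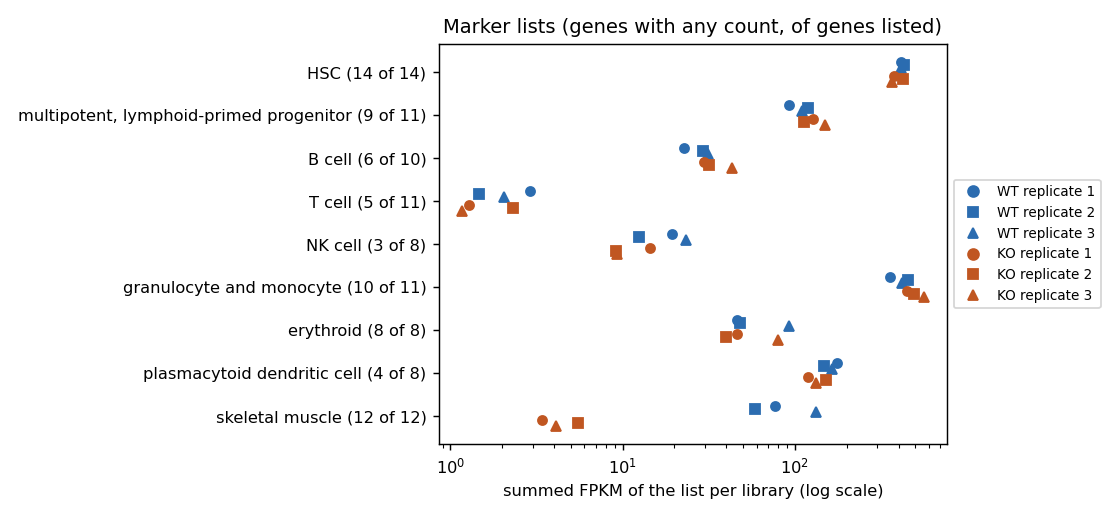
Summed FPKM of each marker list (rows, with the number of genes detected of those listed) in each library on a logarithmic x axis, with WT in blue, KO in orange and the replicate given by the symbol. HSC markers sum to 366 to 430 FPKM and T cell markers to 1.17 to 2.89 FPKM, with overlapping groups, while skeletal muscle markers separate WT from KO.

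The genes whose levels across the 6 libraries were most like each tested gene were, as a description, Med16 (Pearson r = 0.9966) and Zfp36l1 (0.9927) for Tcf3, Toe1 (0.9849) and Trim24 (0.9792) for Notch1, and Svip (0.9888) and Trub1 (0.9876) for Satb1. With only 6 points, an r over 0.9 was not limited to these genes: of 10143 genes compared, 208 exceeded 0.9 for Tcf3, 51 for Notch1 and 89 for Satb1.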

How the data were processed

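Bulk RNA-seq libraries of sorted HSCs were prepared from amplified cDNA. The methods name a TruSeq kit and the labels SMART-Seq v4. The authors deposited raw read counts per gene and FPKM values, which equal the count divided by 1 length per gene and by the library total. The submitters' processing notes name TopHat, HTSeq and mm10; the annotation and strand setting are not given in the sources used here.

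Groups and replicate numbers were taken from the labels. The genes and lists were chosen with earlier results of these data known. Named genes were the 9 genes, Med23, list genes past the threshold, up to 3 higher and 3 lower genes per list under an unadjusted p of 0.05, listed partners and paralogs, genes with the highest or lowest level of a list, and the 2 genes most correlated with each tested gene (mean of at least 50 counts). Of these, 2 genes are not reported here.

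The test on counts was edgeR 4.0.16 in R 4.3.3 (TMM, filterByExpr defaults, robust quasi-likelihood test, Benjamini-Hochberg adjustment at 0.05). Alternatives used DESeq2 1.42.0, limma 3.58.1 on log2(FPKM + 1) or log2(FPKM + 0.1) with or without a minimum mean FPKM of 1, upper-quartile scaling, other count filters (none, or 10 counts in every sample), a replicate block and each sample left out. The procedure was tested on simulated counts. Coordinates are from GENCODE M21 (34344 of 34745 identifiers matched) and promoters from RefSeq on GRCm38.p6, matched by symbol.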

Additional observations from a re-analysis of the deposited data

How the results depend on the processing

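The count of lymphoid priming genes past the threshold was 0 in edgeR and in each of the 14 alternatives, which tested 2 to 5 of them. For the 7 lists it was also 0 in edgeR, with 104 genes tested, and in each of the 14 alternatives, which tested 94 to 126. Over all genes the count moved from 9 in edgeR to 120 with DESeq2, of 12513 genes tested in each. It was 15 with limma on log2(FPKM + 1) at a mean FPKM of at least 1, and 5 to 11 when each sample was left out. The cause was not tested. With so few genes passing, the counts of 0 for the lymphoid priming genes and the lists say little. The fold changes kept their direction in every alternative that gave a value: from 0.07 to 0.57 for Tcf3 and 0.13 to 0.40 for Notch1 (14 alternatives each), and from -1.65 to -0.16 for Satb1 (12, since 2 filters on FPKM remove it), on the log2 scale. The adjusted p lay between 0.719 and 1. A fit with a replicate block passed 5 genes, and the log2 fold change of Satb1 was -1.01. Deviations from the group mean correlated at 0.17, 0.032 and 0.17 for equally numbered samples, with a mean of -0.062 between differently numbered samples. Centring each gene within its group ties this mean to the other values, so it is no separate baseline. The replicate numbers were not taken to pair the samples, because not every equally numbered pair exceeded 0.1. These values do not settle whether the samples were paired. With 3 samples a group, an interval for Satb1 from -2.40 to 0.99 and depths of 3537269 to 8131344 reads, changes in low genes could not be resolved, and 0 counts allow up to 0.095 CPM over all libraries.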
